A study of Mus musculus with 2 samples.

Results

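The Fc gamma receptors of the mouse were followed here as 5 transcripts among the 27998 genes of the deposited feature tables, found by symbol: Fcgr1, Fcgr2b, Fcgr3, Fcgr4 and Fcer1g. Each symbol matched exactly 1 gene. The cells were live CD45+ cells sorted from subcutaneous B16F10 tumors, a transplanted mouse melanoma line, 14 days after injection into C57BL/6 hosts. Control hosts were Usp18f/f, which carry floxed alleles of Usp18, which encodes an interferon-induced ISG15 protease that dampens type I interferon signalling. The other hosts were Usp18f/f LysM-Cre, in which Cre is expressed from the myeloid gene Lyz2, so deletion was directed at myeloid cells. Both groups carry the floxed alleles, and the labels give no age or sex. Cells of 4 tumors were pooled into 1 library per group and read with the 10x Genomics 3' v3 chemistry, which counts captured RNA molecules by unique molecular identifiers (UMIs).

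Fc gamma receptors bind the constant part of IgG and let myeloid cells respond to antibody-coated targets. Fcgr1, Fcgr3 and Fcgr4 encode the activating IgG-binding chains, and all of them signal through the shared chain encoded by Fcer1g, whose ITAM motif recruits the kinase Syk. Fcgr2b encodes the inhibitory receptor, whose ITIM motif recruits the phosphatase SHIP-1. In antibody therapy of tumors, the ratio of activating to inhibitory receptors on macrophages is known to set how readily they engulf coated tumor cells.

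The library labelled LysM-Cre has to be read with care, because its target went against the label. Usp18 measured 18.9 counts per 1000000 UMIs (CPM) in control mononuclear phagocytes and 98.9 CPM in the library labelled LysM-Cre, while Lyz2, which carries Cre, went with the label at 9441 and 17.6 CPM. Which Usp18 exons these transcripts hold cannot be read from 3' UMIs. Barcodes numbered 7754 and 6063, with median depths of 2600 and 4455 UMIs, and 6653 and 5450 passed the filters. Only 8 barcode sequences occurred in both libraries. Transcripts of Xist, expressed from the inactive X chromosome of females, and of 4 Y-linked genes showed cells of both sexes in both pools. Of cells with only 1 of these signals, 36.5% were of the Xist kind in the control library and 86.1% in the other. Each group is 1 pool, so no difference below has a replicate check or a p-value, and all 95% intervals cover counting error only.

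Most Fc gamma receptor UMIs lay in mononuclear phagocytes, the monocyte-like and macrophage-like clusters combined (1712 cells of the control library and 2595 of the other). They held 91.7% of the control library's Fcgr1 UMIs among kept cells, 80.9% of Fcgr2b, 87.4% of Fcgr3, 83.9% of Fcgr4 and 76.3% of Fcer1g. In the library labelled LysM-Cre the shares lay between 86.8% for Fcer1g and 94.8% for Fcgr3. Their median depths were close, at 6638.5 and 6064 UMIs per cell. The class names rest on marker transcripts and mean "like" throughout. All 10 macrophage markers and all 10 monocyte markers were detected in these cells in both libraries.

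**Figure D1:**
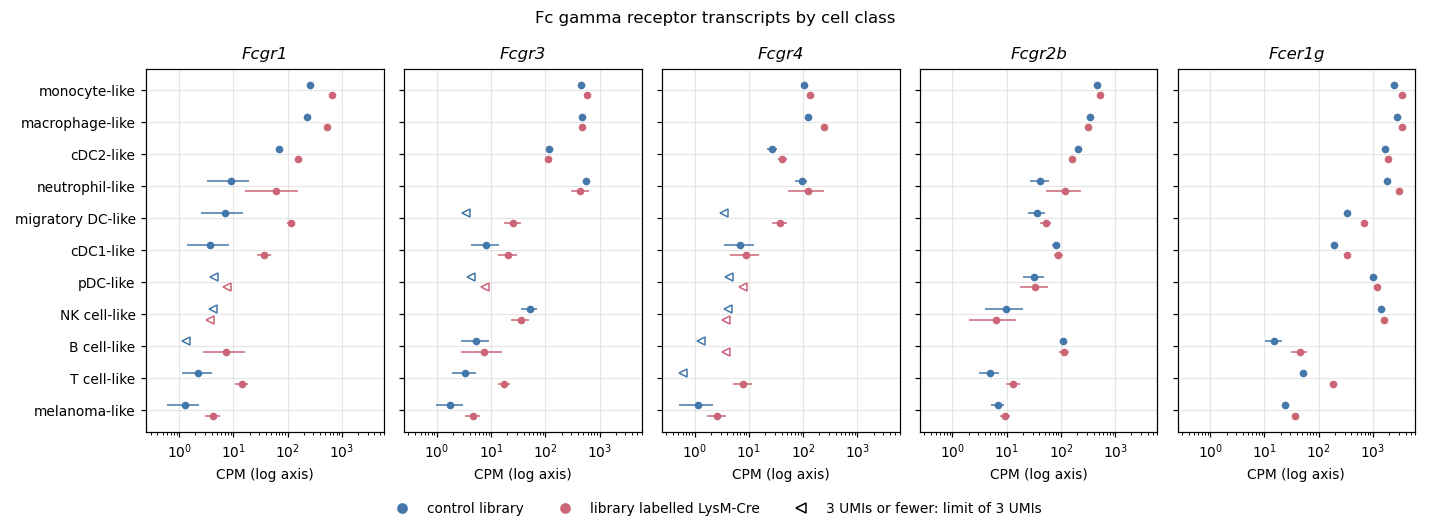
Level of each gene in CPM (log axis) by cell class, with the control library in blue and the library labelled LysM-Cre in red; points are 1 library each, bars are 95% Poisson intervals, and open triangles mark 3 UMIs or fewer. All 5 genes were highest or near highest in the monocyte-like and macrophage-like classes, and Fcgr1 stood apart between the libraries in both. Fcgr2b also stood at 107 and 114 CPM in B-cell-like cells.

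Fcgr1, which encodes the high-affinity IgG receptor CD64, showed the widest difference of the 5 genes over all mononuclear phagocytes and in the monocyte-like and macrophage-like classes as a whole. In the macrophage-like clusters led by Gas6 and by cycling genes both Fcgr4 and Fcgr2b differed more than Fcgr1. Fcgr4 stood at 1.57-fold and 1.81-fold and Fcgr2b at 0.674-fold and 0.569-fold, against 1.45-fold and 1.57-fold for Fcgr1. In Y-positive mononuclear phagocytes (cells with a UMI of a Y-linked gene and none of Xist) Fcgr2b (0.407-fold) and Fcgr4 (1.41-fold) differed more than Fcgr1 (1.33-fold). The gene (ENSMUSG00000015947) lies on chromosome 3, 96282909 to 96293969, minus strand, GRCm38. Mononuclear phagocytes of the control library held it at 246 CPM (238 to 255), against 575 CPM in the library labelled LysM-Cre (565 to 586), a 2.34-fold higher level (2.25 to 2.43). Monocyte-like cells went from 260 to 662 CPM, and macrophage-like cells from 232 to 531 CPM. Its log2 ratio in mononuclear phagocytes, 1.21, lay above 99.4% of the 11813 genes tested. Fcgr1 was thus the only one of the 5 genes at least 2-fold higher, where 0.982% of all genes tested were at least 2-fold higher and 0.0593% at least 2-fold lower. It was also the only one in monocyte-like cells (1.13% of genes higher, 0.153% lower) and in macrophage-like cells (1.39% higher, 0.169% lower).

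The 2-fold mark for Fcgr1 was not met under every reading of the macrophage-like class. That class held 111 cells (control) and 500 cells (labelled LysM-Cre) of 1 cluster led by the chemokine genes Ccl7, Ccl12, Ccl8 and Ccl2, which had the highest Fcgr1 level of the 7 mononuclear phagocyte clusters (376 and 928 CPM). Without that cluster the log2 ratio of Fcgr1 was 0.57 in macrophage-like cells and 0.97 in mononuclear phagocytes, against 1.18 and 1.21 with it. As a mean over clusters, each counted once, it was 0.86 in macrophage-like cells and 1.08 in all mononuclear phagocytes. In monocyte-like cells the same mean was 1.38, close to the 1.33 of the class as a whole. In each of the 7 mononuclear phagocyte clusters Fcgr1 was higher in the library labelled LysM-Cre, from 1.45-fold (1.34 to 1.58) in the macrophage-like cluster led by Gas6, Igf1 and Vcam1 to 3.0-fold (2.68 to 3.37) in the monocyte-like cluster led by Ppbp and Arg1.

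Fcgr4 encodes an activating receptor of intermediate affinity found on monocytes, macrophages and neutrophils. The gene (ENSMUSG00000059089) lies on chromosome 1, 171018920 to 171029761, plus strand. It measured 114 CPM in control mononuclear phagocytes and 205 CPM in the library labelled LysM-Cre, 1.79-fold higher (1.69 to 1.90). Taken as whole classes, the difference was wider in macrophage-like cells (125 and 240 CPM, 1.91-fold) than in monocyte-like cells (103 and 136 CPM, 1.32-fold). By cluster the order was mixed. The monocyte-like clusters led by Ppbp and Arg1 and by Hp differed by 1.86-fold and 2.08-fold. Macrophage-like clusters differed by 1.57-fold (Gas6-led), 1.81-fold (cycling), 2.10-fold (chemokine-led) and 1.20-fold (shallow cells). Without the chemokine-led cluster, mononuclear phagocytes differed by 1.52-fold. All 7 clusters had a higher Fcgr4 level in the library labelled LysM-Cre, although the monocyte-like cluster led by Dmkn, Vcan and Chil3 differed by only 1.04-fold (0.924 to 1.17). Among the classes and clusters measured here, the highest Fcgr4 level lay outside the named classes, in an unnamed cluster led by Adgre4, Ace, Treml4, Cd300e and Ear2, at 370 CPM in 102 control cells and 330 CPM (110 UMIs) in 89 cells of the library labelled LysM-Cre. The macrophage-like chemokine-led cluster measured 152 and 320 CPM, so the lead was wide in the control library only. In the unnamed cluster Fcgr4 gave 68.5% and 61.1% of the activating UMIs, against 13.8% and 15.9% in mononuclear phagocytes.

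Fcgr3 encodes a low-affinity activating receptor carried by most myeloid cells and by natural killer cells. The gene (ENSMUSG00000059498) lies on chromosome 1, 171051174 to 171064935, minus strand. Its level was 464 CPM in control mononuclear phagocytes and 506 CPM in the library labelled LysM-Cre, 1.09-fold higher (1.06 to 1.13). Monocyte-like cells measured 451 and 574 CPM, and macrophage-like cells 478 and 471 CPM, where the interval of the ratio included 1 (0.945 to 1.03). Fcgr3 was higher in 5 of the 7 clusters and lower in the Gas6-led cluster and in the cycling macrophage-like cluster.

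Fcgr2b, the inhibitory receptor gene, differed little over all mononuclear phagocytes. The gene (ENSMUSG00000026656) lies on chromosome 1, 170958617 to 170976547, minus strand. Control mononuclear phagocytes held 404 CPM (393 to 414), against 386 CPM in the other library, a ratio of 0.956 (0.923 to 0.989). The direction was not stable: once every cell was thinned to 1000 UMIs, so that deep cells no longer weighed more, the log2 ratio went from -0.06 to 0.05. Monocyte-like cells had 460 and 524 CPM, and macrophage-like cells 345 and 315 CPM. Only 3 of the 7 clusters had a higher Fcgr2b level in the library labelled LysM-Cre. The ratio was lowest in the cycling macrophage-like cluster, at 0.569 (0.489 to 0.661), and in the Gas6-led cluster, at 0.674 (0.623 to 0.728).

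Fcer1g, the signalling chain that the activating receptors need at the cell surface, measured 2598 CPM in control mononuclear phagocytes and 3414 CPM in the library labelled LysM-Cre, 1.31-fold higher. The gene (ENSMUSG00000058715) lies on chromosome 1, 171229572 to 171234365, minus strand. It was higher in all 7 clusters, by 1.17-fold to 1.43-fold. Fcer1g UMIs per activating chain UMI stood at 3.15 in the control library and 2.66 in the other. In the monocyte-like cluster led by Ppbp and Arg1 the figure was 2.67 and 2.0, and in the Gas6-led cluster it was 3.47 and 3.57. The median log2 ratio of all genes tested was -0.02 in mononuclear phagocytes.

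**Figure D2:**
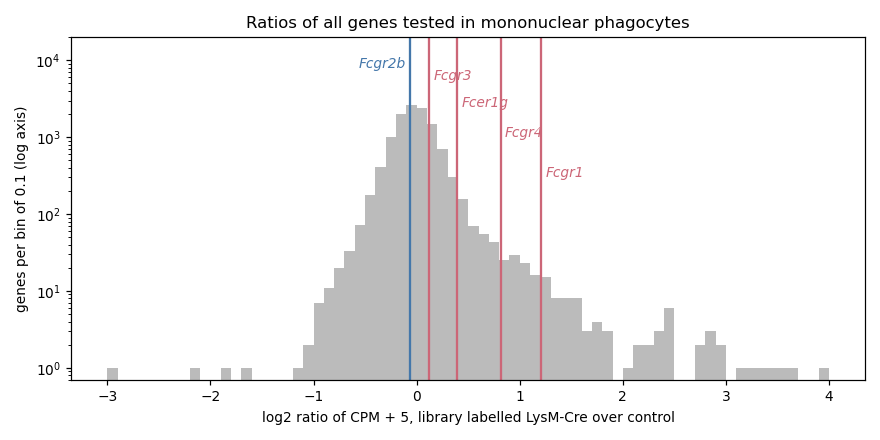
Number of genes (log axis) per bin of log2 ratio in mononuclear phagocytes, library labelled LysM-Cre over control, for the 11813 genes with at least 20 UMIs over both libraries; vertical lines mark the 5 genes, and ratios beyond the axis are counted in the end bins. Fcgr1 (1.21) and Fcgr4 (0.82) lie in the right tail, Fcer1g (0.39) on the shoulder, and Fcgr3 (0.12) and Fcgr2b (-0.06) near the middle.

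The promoters of the genes at the ends of this order over all mononuclear phagocytes are shown. Fcgr1 and Fcgr4 stood at the high end and Fcgr2b, which differed little there, at the low end. Each window runs from 250 bases before to 50 bases after the start, from RefSeq on GRCm38.p6, 5' to 3' on the gene's strand. Capitals mark matches on either strand to 3 motifs: TTCNNNGAA (the GAS element of interferon-gamma responses), GAAANNGAAA (paired half-sites as in interferon-stimulated response elements) and GAGGAA (a core of PU.1 and other ETS factors, which reads TTCCTC on the other strand). Of 32851 windows of this length, 8.30% held the first, 3.44% the second and 28.3% the third.
Fcgr1, minus strand, chr3:96293920-96294219: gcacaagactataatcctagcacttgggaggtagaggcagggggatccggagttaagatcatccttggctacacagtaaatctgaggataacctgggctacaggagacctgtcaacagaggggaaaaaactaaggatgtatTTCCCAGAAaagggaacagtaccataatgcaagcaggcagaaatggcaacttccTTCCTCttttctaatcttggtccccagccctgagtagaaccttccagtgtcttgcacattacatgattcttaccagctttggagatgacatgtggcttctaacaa
Fcgr4, plus strand, chr1:171018676-171018975: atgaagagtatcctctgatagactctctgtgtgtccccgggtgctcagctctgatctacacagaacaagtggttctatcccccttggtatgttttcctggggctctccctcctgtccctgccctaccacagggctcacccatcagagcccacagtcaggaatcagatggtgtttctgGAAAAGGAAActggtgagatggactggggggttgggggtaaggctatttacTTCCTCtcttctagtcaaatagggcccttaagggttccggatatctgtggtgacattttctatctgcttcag
Fcgr2b, minus strand, chr1:170976022-170976321: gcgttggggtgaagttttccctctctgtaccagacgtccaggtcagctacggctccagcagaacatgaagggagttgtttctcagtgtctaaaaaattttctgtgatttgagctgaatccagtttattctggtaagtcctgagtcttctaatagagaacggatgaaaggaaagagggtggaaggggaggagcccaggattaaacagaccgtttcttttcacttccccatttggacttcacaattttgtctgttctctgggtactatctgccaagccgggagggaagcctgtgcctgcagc
The Fcgr1 window held a GAS match, TTCCCAGAA, that begins 109 bases before the start, and an ETS core 55 bases before it. The Fcgr4 window held paired half-sites, GAAAAGGAAA, 73 bases before the start and an ETS core 22 bases before it. The Fcgr2b window held none of these letters, and neither did that of Fcer1g, while the Fcgr3 window held only the ETS core. No match overlapped another. A match is a match of letters only, binding was not measured, and a link between matches and levels was not tested.

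The activating to inhibitory ratio was taken as the UMIs of Fcgr1, Fcgr3 and Fcgr4 over those of Fcgr2b in a class. A UMI counts a captured molecule whatever the transcript's length, but capture can differ between genes, so the ratio is comparable between cells and libraries and not a count of proteins. In mononuclear phagocytes it was 2.04 in the control library (1.98 to 2.11) and 3.33 in the library labelled LysM-Cre (3.25 to 3.42), 1.63-fold higher (1.57 to 1.70). Monocyte-like cells stood at 1.77 and 2.62, and macrophage-like cells at 2.42 and 3.94. The make-up of the activating UMIs differed as well: Fcgr1 gave 29.9% of them in the control library and 44.7% in the other, while Fcgr3 gave 56.3% and 39.3%.

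The ratio was higher in the library labelled LysM-Cre in 7 of 7 clusters, and in 6 of them the counting interval excluded equal ratios. The exception was a macrophage-like cluster of shallow cells (62 and 295 cells, median 816 UMIs), at 2.43 and 3.10. The monocyte-like cluster led by Ppbp and Arg1 was the most inhibitory in the control library, at 1.15, and stood at 2.24 in the other, with Fcgr2b at 701 and 693 CPM, the highest of the 7. The cycling macrophage-like cluster, led by histone genes, had the highest ratio of the 7 in the library labelled LysM-Cre, 5.86, against 2.78 in the control library, and there a lower Fcgr2b level took part (240 and 137 CPM). In the chemokine-led cluster the ratios were 1.87 and 3.48 with Fcgr2b at 576 and 520 CPM. The unnamed Ace-led cluster went the other way, from 3.93 to 2.77, with an interval that included no difference (0.453 to 1.10 for the ratio of the values).

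**Figure D3:**
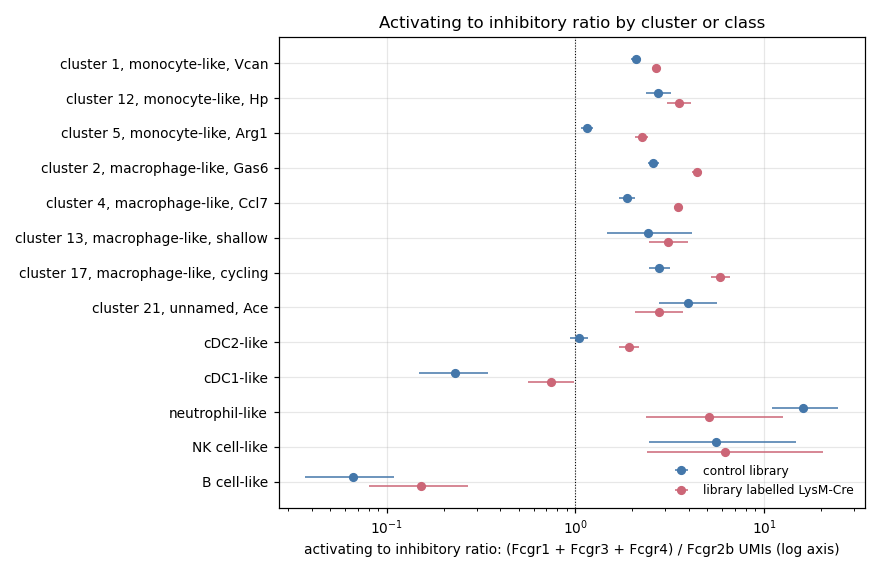
Activating to inhibitory UMI ratio (log axis) by cluster or class, control library in blue and library labelled LysM-Cre in red; bars are 95% intervals from exact binomial limits. All 7 monocyte-like and macrophage-like clusters lie further right in the library labelled LysM-Cre, from 1.15 and 2.24 in cluster 5 to 2.78 and 5.86 in cluster 17, while B-cell-like cells stay below 1 in both.

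The pools differ in sex, and this split the members into those whose direction held and those whose direction did not. Xist-positive cells, with an Xist UMI and no Y-linked UMI, numbered 408 and 1724 among mononuclear phagocytes, and Y-positive cells, with the opposite, 822 and 324. The labels do not say how many animals of each sex were pooled, so a difference between sexes cannot be told apart from one between animals. Fcgr1 was higher in both kinds, from 251 to 665 CPM in Xist-positive cells (2.65-fold, 2.46 to 2.86) and from 239 to 318 CPM in Y-positive cells (1.33-fold, 1.23 to 1.43). Fcer1g was 1.29-fold higher in each kind.

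Fcgr2b took opposite directions. In Xist-positive cells it went from 338 CPM in the control library to 469 CPM in the other, and in Y-positive cells 407 and 166 CPM. Fcgr3 did the same on a smaller scale, with 404 and 563 CPM in the first kind and 471 and 355 CPM in the second. Fcgr4 was 2.48-fold higher in Xist-positive cells and 1.41-fold higher in Y-positive cells, but in monocyte-like cells of the second kind it measured 113 and 84.1 CPM. Over all mononuclear phagocytes the activating to inhibitory ratio was higher in both kinds of cell. It stood at 2.19 and 3.08 in Xist-positive cells and 2.03 and 5.04 in Y-positive cells. The 2 kinds of cell thus lay closer to each other in the control library than in the other, a difference with no replicate check.

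Within clusters, the low Fcgr2b level of Y-positive cells lay in some macrophage-like clusters and not in others. In the Gas6-led cluster Fcgr2b measured 273 and 298 CPM in Xist-positive cells but 321 and 116 CPM in Y-positive cells, the latter from 184 and 142 cells. In the cycling cluster the values were 184 and 189 CPM against 260 and 78.9 CPM. The chemokine-led cluster showed the reverse, with 504 and 535 CPM in Xist-positive cells and 545 and 725 CPM in the 71 and 22 Y-positive cells. Among monocyte-like clusters, the one led by Vcan had 428 and 326 CPM in Y-positive cells, and the one led by Hp 191 and 238 CPM. The monocyte-like cluster led by Ppbp and Arg1 had only 4 Y-positive cells in the library labelled LysM-Cre. Fcgr1 was higher in both kinds of cell in all of these clusters but that last one, where it stood at 240 and 201 CPM in Y-positive cells. Its folds in Xist-positive and Y-positive cells were 1.79 and 1.59 (Vcan-led), 2.69 and 2.23 (Hp-led) and 1.58 and 1.35 (Gas6-led). They were 2.26 and 1.25 in the cycling cluster, but 1.51 and 2.80 in the chemokine-led cluster. That cluster held 15 and 407 Xist-positive cells, and the part of cluster make-up in the folds of all mononuclear phagocytes was not tested. The activating to inhibitory ratio was higher in both kinds of cell in the Vcan-led, Gas6-led, cycling and chemokine-led clusters. In Y-positive cells of the Hp-led cluster it was 2.54 and 2.33 (0.596 to 1.40 for the ratio of the values). In those of the cluster led by Ppbp and Arg1 it was 1.08 and 1.65 (0.901 to 2.59).

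**Figure D4:**
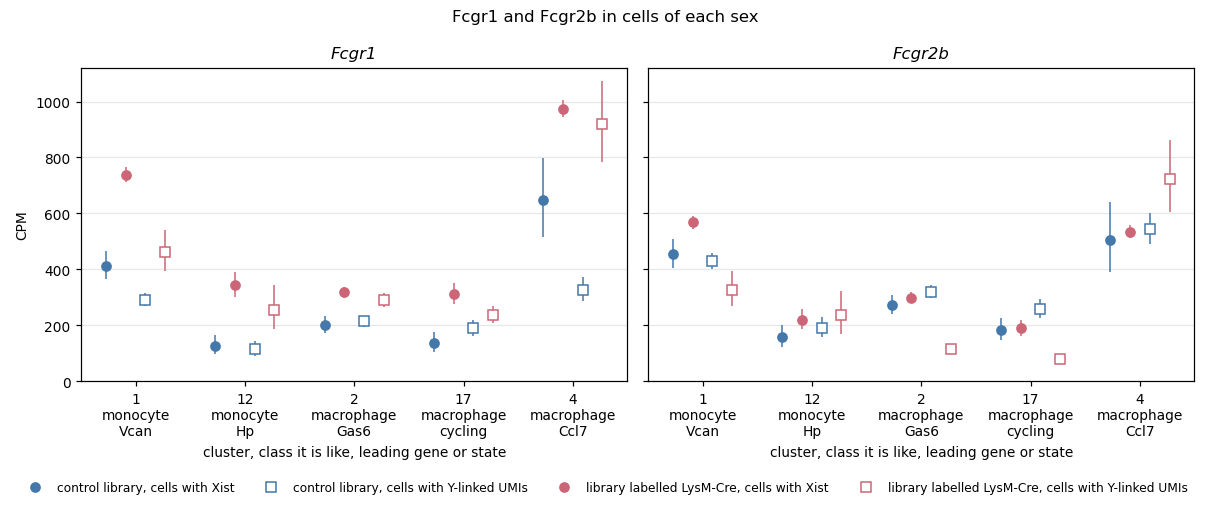
Level in CPM of Fcgr1 (left) and Fcgr2b (right) in 5 clusters, for Xist-positive cells (filled circles) and Y-positive cells (open squares), control library in blue and library labelled LysM-Cre in red; bars are 95% Poisson intervals. Fcgr1 is higher in the library labelled LysM-Cre in every pair, while Fcgr2b of the Y-positive cells is lower in clusters 2 (321 and 116 CPM) and 17 (260 and 78.9 CPM) and higher in cluster 4 (545 and 725 CPM).

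Among dendritic cells, cDC2-like cells, which present antigen to CD4 T cells, carried all 5 transcripts at lower levels than macrophages. Fcgr1 measured 70.9 CPM in 386 control cells and 158 CPM in 281 cells of the library labelled LysM-Cre (2.22-fold, 1.89 to 2.62), Fcgr2b 204 and 162 CPM, and the ratio of activating to inhibitory UMIs was 1.04 and 1.92. Of these cells 38.6% and 38.1% held at least 3 macrophage marker UMIs. They carried 67.5% and 58.2% of the Fcgr1 UMIs of this class, 69.5% and 74.5% of Fcgr2b and 87.2% and 86.5% of Fcgr3. For Fcgr4 the shares were 45.6% and 76.7%, and for Fcer1g 55.2% and 56.4%. Levels and the ratio without these cells were not computed, so the values may not be those of dendritic cells alone. The sexes again differed for Fcgr2b, at 153 and 173 CPM in Xist-positive cells and 215 and 72.4 CPM in Y-positive cells, the last from 24 cells. cDC1-like cells, which cross-present antigen to CD8 T cells, held mostly the inhibitory chain, with Fcgr2b at 82.0 and 89.8 CPM and a ratio of 0.229 and 0.740. In the library labelled LysM-Cre, 8 cells with at least 3 macrophage marker UMIs carried 72.5% of the Fcgr1 UMIs of this class, and the 5 cells with most Fcgr1 UMIs held 82.4%. Without the cells that held such markers the ratio was 0.179 and 0.333, a 1.86-fold difference (1.02 to 3.41) in place of 3.23-fold.

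Migratory DC-like cells showed the widest ratio between the libraries, 0.258 and 3.37, but on few cells. Their Fcgr1 level was 6.98 CPM (6 UMIs) in 128 control cells and 115 CPM (142 UMIs) in 163 cells of the library labelled LysM-Cre. In the latter, the 5 cells with most UMIs held 55.6% of the Fcgr1 UMIs. Macrophage markers moved with this: all 10 were detected in both libraries, their summed level was 230 and 496 CPM, and 3.91% and 16.0% of the cells held at least 3 of their UMIs. Those cells carried 78.9% of the Fcgr1 UMIs in the library labelled LysM-Cre. Without them Fcgr1 measured 7.35 and 32.3 CPM, from 6 and 30 UMIs, and the activating to inhibitory ratio was 0.276 and 3.07, from 29 and 14 Fcgr2b UMIs. Fcgr2b changed direction, from 36.1 and 52.6 CPM in all migratory DC-like cells to 35.5 and 15.1 CPM without them.

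Neutrophil-like cells carried Fcgr3 as their main Fc gamma receptor transcript, with 557 CPM in 543 control cells and 440 CPM in the library labelled LysM-Cre, which held only 33 such cells. Fcgr4 stood at 93.8 and 121 CPM, and Fcgr2b at 40.8 and 121 CPM, the latter from 8 UMIs. Their activating to inhibitory ratio of 16.1 in the control library was the highest of any class and measured 5.12 in the other.

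Among lymphoid cells, NK-cell-like cells held Fcgr3, the receptor of antibody-dependent killing, at 51.5 and 35.1 CPM. The values rest on 37 and 28 UMIs, with a ratio of 0.681 and an interval from 0.401 to 1.14. Fcer1g, which also serves natural cytotoxicity receptors in these cells, stood at 1417 and 1578 CPM. B-cell-like cells held Fcgr2b, their only classical Fc gamma receptor, at 107 and 114 CPM, a ratio of 1.06 (0.826 to 1.36). Plasmacytoid DC-like cells held Fcer1g at 996 and 1163 CPM with at most 3 UMIs of any activating chain in a library.

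T-cell-like cells were taken as a measure of background for the IgG-binding chains, on the assumption that they lack them, which was not tested. Fcgr1 measured 2.25 CPM there in control cells and 14.4 CPM in the other library, Fcgr2b 4.90 and 13.3 CPM, and Fcer1g 51.9 and 186 CPM. Macrophage markers moved in the same direction: all 10 were detected in both libraries, summed to 51.4 and 231 CPM, and reached 3 UMIs in 0.248% and 3.50% of the cells. Without those cells Fcgr1 stood at 2.05 and 7.33 CPM and Fcer1g at 51.2 and 119 CPM, so part of the difference remained. The levels in T-cell-like cells were thus higher in the library labelled LysM-Cre, yet far below those in mononuclear phagocytes. Subtracting 5% of each class total as free RNA left the log2 ratio of Fcgr1 in mononuclear phagocytes at 1.20. The 5% was assumed and not measured, and so small a share could move that ratio little. The part of background in the Fcgr1 difference was not tested.

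In single mononuclear phagocytes, activating chains without Fcgr2b were captured more often than Fcgr2b alone. This sets 3 genes against 1, so capture favours the activating side, and the shares do not show which cells lack a chain. After thinning to 1000 UMIs, which left out 52 and 232 shallower cells, 36.2% of control mononuclear phagocytes held UMIs of an activating chain without Fcgr2b, 16.6% held both, 12.6% held Fcgr2b alone and 34.6% neither. In the library labelled LysM-Cre the shares were 45.9%, 22.6%, 8.25% and 23.2%. Unthinned, Fcgr2b alone was seen in 3.50% and 1.43%, and both in 73.1% and 69.7%. Fcgr1 UMIs occurred in 20.8% and 42.0% of the thinned cells, and in 65.9% and 81.5% unthinned. In T-cell-like cells, with median depths of 2331 and 2732 UMIs, the thinned shares for Fcgr1 were 0.19% and 0.63%. Fcgr2b UMIs occurred in 29.2% and 30.9% of thinned mononuclear phagocytes, with overlapping intervals.

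**Figure D5:**
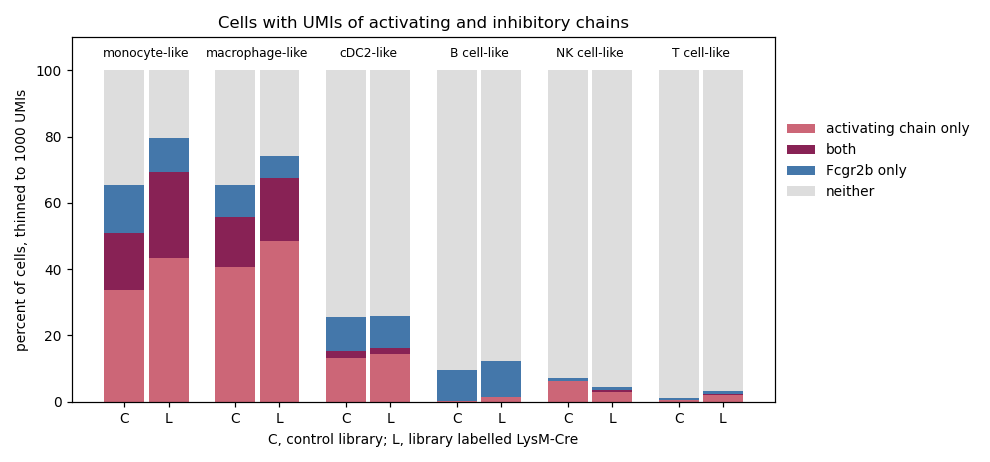
Percent of cells, each thinned to 1000 UMIs, that held UMIs of an activating chain only, of both kinds, of Fcgr2b only or of neither, by class and library (C, control; L, labelled LysM-Cre). Monocyte-like cells went from 33.7% to 43.3% with an activating chain only and from 17.4% to 26.2% with both, B-cell-like cells held Fcgr2b alone (9.08% and 10.9%), and T-cell-like cells were nearly empty.

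Few genes of the surrounding pathway reached a 2-fold difference, and few of all genes tested did. In mononuclear phagocytes 0.982% of all genes tested were at least 2-fold higher and 0.0593% at least 2-fold lower. With shares this low, lists of 6 to 19 tested genes cannot show whether the pathway differed less than other genes. Of the 9 other Fc receptor genes tested in mononuclear phagocytes, such as the neonatal receptor Fcgrt (48.9 and 51.6 CPM), none was 2-fold higher or lower, with a median log2 ratio of -0.0007. None of 19 ITAM signalling genes passed either mark (median -0.05), with Syk at 148 and 119 CPM and the adapter Lcp2 at 173 and 168 CPM. None of 15 ITIM receptor and inhibitory signalling genes did (median -0.0003), with Inpp5d, which encodes SHIP-1, at 149 and 146 CPM. None of 6 NADPH oxidase genes, which make the oxidative burst, did (median -0.12), with Cybb at 694 and 599 CPM. The same held for 13 known regulators (median -0.002), with the myeloid factor Spi1 at 375 and 404 CPM, and for 8 tested genes of receptors that share Fcer1g and of sister adapters (median 0.06), with Tyrobp at 2037 and 1932 CPM. In monocyte-like cells no gene of the 6 lists was 2-fold higher or lower either, where 1.13% of all genes tested were higher and 0.153% lower.

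In macrophage-like cells 2 listed genes passed the 2-fold mark, where 1.39% of all genes tested were higher and 0.169% lower. Tarm1, 1 of 8 tested genes of receptors that share Fcer1g and of sister adapters, measured 3.81 and 13.8 CPM. Tgfbr1, 1 of 13 tested regulators, a receptor of TGF-beta, which is known to restrain macrophage activation, measured 148 and 69.9 CPM. Its log2 ratio of -1.03 no longer passed the mark once ratios were centred on the median of all genes tested.

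Over cell classes, the genes most like each member were not the same. Over 22 pairs of class and library, log2 levels of Fcgr1 were most like those of Ms4a6d (Pearson r = 0.97), C3ar1 (0.96) and Clec4a1 (0.95), among 6677 genes. Fcgr3 was most like Itgam (0.97), C5ar1 (0.94) and Cd300ld (0.94), Fcgr4 like Ccl6 (0.97), Csf1r (0.95) and Slc11a1 (0.95), and Fcer1g like Tyrobp (0.94), Naip2 (0.89) and Fes (0.86). Fcgr2b, found on B cells as well as on phagocytes, had neighbours in Ctsc (0.89) and Tor1aip1 (0.87). Between members, r ran from 0.50 for Fcgr2b with Fcer1g to 0.93 for Fcgr3 with Fcgr4. The pairs share 2 libraries and their depths, so these values describe likeness over cell classes only.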

How the data were processed

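The authors deposited raw UMI counts per gene and barcode, made with Cell Ranger 3.0.1 on mm10, per the submitters' processing notes; the annotation and the strand rule of counting are not given in the sources used here. Filters required at least 200 genes and no more than 10% mitochondrial UMIs, and Scrublet's highest scores (0.8% per 1000 barcodes) were removed as doublets, 481 and 294 barcodes. Cells were clustered together (scanpy 1.11.5, leidenalg 0.10.2; 2000 variable genes, 30 components, 15 neighbours, resolution 1) without the 5 members and without interferon, sex-linked and technical genes. Of 30 clusters 27 were named from marker lists, with at least 3 markers detected; the rule that keeps the erythroid name for clusters with 10% haemoglobin and the rule against mixed clusters were set after values were seen. The chemokine-led cluster scored only slightly higher for macrophage than for monocyte markers.

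UMIs were summed by class and library to CPM, with exact Poisson intervals, exact Clopper-Pearson intervals for shares and log2((CPM + 5)/(CPM + 5)) ratios for genes with at least 20 UMIs. A class total of 13350539 (control) or 21417766 UMIs stands behind each mononuclear phagocyte value. The ratio, its intervals and the thinning were tested on simulated counts. With 1 library per group no test between groups was made. Genes named are the 5 members, listed genes at least 2-fold different (at most 2 per list and direction), the 3 most alike genes per member, label checks and class markers; 1 gene most like Fcgr2b is not reported here, and list genes below 2-fold are examples chosen after their values were seen. The members and lists were chosen with earlier results of these data known. Of the 27998 genes, 27645 had their identifier in GENCODE M21 (GRCm38). Of the 60-base words in the last 500 bases of Fcgr2b transcripts, 13 of 1447 also occur in Fcgr3, and those of the other members occur in no other gene; Fcgr2b also overlaps the antisense gene Gm38204. Alternatives were other mitochondrial limits, doublets kept, separate clustering, a per-cell marker gate, members left in the clustering, each sex, free RNA subtracted, thinning, pseudocounts, count minimums and centring; leaving out single clusters and the mean over clusters were chosen after seeing the data.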

Additional observations from a re-analysis of the deposited data

Results flagged for a closer look

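Opposite directions in cells of each sex drew attention to Fcgr2b and Fcgr3. In mononuclear phagocytes Fcgr2b was 1.39-fold as high in the library labelled LysM-Cre as in the control library in Xist-positive cells, and 0.407-fold in Y-positive cells. The values were 1.36 and 0.692 in monocyte-like cells and 1.53 and 0.396 in macrophage-like cells. Fcgr3 stood at 1.39 and 0.754 in mononuclear phagocytes, 1.47 and 0.849 in monocyte-like cells, and 1.34 and 0.714 in macrophage-like cells. Each of these intervals excluded 1 by counting error, but the difference between the sexes was not tested, because each pool holds an unknown number of animals of each sex.

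Neutrophil-like cells went against the phagocytes in their activating to inhibitory ratio, which was 0.317 times the control value (0.135 to 0.744) in the library labelled LysM-Cre. The value rests on 8 Fcgr2b UMIs in 33 cells. Of those UMIs, 87.5% lay in the 5 cells that held at least 3 macrophage marker UMIs. The difference from the other classes was not tested.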

How the results depend on the processing

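The log2 ratio of the activating to inhibitory balance (library labelled LysM-Cre over control) was above 0 under each alternative, 34 values over mononuclear phagocytes (12), monocyte-like cells (10) and macrophage-like cells (12), and 20 of these values stayed within the counting interval. In mononuclear phagocytes (0.71) it went to 0.77 with doublets kept, 0.62 with each library clustered on its own, 0.61 with the members kept in the clustering, 0.49 in Xist-positive cells and 1.31 in Y-positive cells. In monocyte-like cells (0.57) it went to 0.76 with a mitochondrial limit of 5%, 0.69 with doublets kept, 0.75 with a per-cell marker gate and 0.47 in Xist-positive cells. In macrophage-like cells (0.70) it went to 0.58 with that mitochondrial limit, 0.54 with the members kept in, 0.40 in Xist-positive cells, 1.32 in Y-positive cells and 0.82 without the chemokine-led cluster. Of 200 values of single members, 8 changed the sign of a ratio whose counting interval excluded 0. Fcgr3 in macrophage-like cells, whose interval included 0, is not among them and took either sign, up to 0.42 in Xist-positive cells. In Xist-positive cells, Fcgr2b went to 0.46 in mononuclear phagocytes and 0.60 in macrophage-like cells, and with thinning to 0.053 and 0.022. In Y-positive cells, Fcgr3 went to -0.40 in mononuclear phagocytes, and in monocyte-like cells Fcgr2b went to -0.52, Fcgr3 to -0.23 and Fcgr4 to -0.41. Fcgr1 stayed above 0 in all, from 0.40 to 1.41 in mononuclear phagocytes, but in macrophage-like cells it lay below the 2-fold mark with the mitochondrial limit (0.71), separate clustering (0.76), the marker gate (0.84), the members kept in (0.88), the mean over clusters (0.86), without the chemokine-led cluster (0.57) and in Y-positive cells (0.40), as it did in monocyte-like Y-positive cells (0.62) and in mononuclear phagocytes without that cluster (0.97) and in Y-positive cells (0.40). Of 112 counts of genes past the 2-fold mark, 6 moved by over 1.5 times. With a pseudocount of 1 CPM, all genes tested gave 209 higher and 91 lower in monocyte-like cells (against 118 and 16) and 312 and 57 in macrophage-like cells (against 156 and 19), and other Fc receptors higher in macrophage-like cells went from 0 to 1. With centring, regulators lower in macrophage-like cells went from 1 to 0. The causes were not tested. Depth limits the classes other than mononuclear phagocytes and cDC2-like cells, where some members rest on fewer than 10 UMIs. No paired analysis was possible because the labels give no replicate numbers and each group is 1 library.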
